A study of Rattus norvegicus with 8 samples.

Results

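The genes described are those of glycine transport and of the postsynaptic glycine receptor: the transporters *Slc6a5* and *Slc6a9*, the receptor subunits *Glra1*, *Glra2*, *Glra3* and *Glrb*, and the scaffold *Gphn*. They are 7 genes with 9 of the 45598 probes on the array that are not controls. All 9 probes were well above background on all 8 arrays and were among the 33853 probes tested. The set was chosen by the measured difference of *Slc6a5*, already known to be higher in these AAV-αSyn samples, so its values are given as a description with no test. The other 6 genes were added by name, and the question asked of them was whether the postsynaptic side moved with the transporter.

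RNA came from the ipsilateral *substantia nigra* (SN) of female Sprague-Dawley rats and measured on Agilent arrays with the dye Cy3, 1 array per sample. The rats were adults of 3 months that received a unilateral injection of an AAV6 vector into the SN and were killed 20 weeks after surgery. The vector carried wild-type human α-synuclein at 5.2e10 vg/µL (AAV-αSyn, 4 arrays) or was a null control at 5.3e9 vg/µL (AAV-Null, 4 arrays), so transgene and titre cannot be told apart. The promoter of the transgene is not given in the sources used here.

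Glycine is, with GABA, a main inhibitory transmitter of the brainstem and spinal cord. *Slc6a5* encodes GlyT2, which returns glycine to the terminals of glycinergic neurons, whose cell bodies lie mostly in the hindbrain and spinal cord, whereas *Slc6a9* encodes GlyT1, carried largely by glia. Released glycine opens chloride channels built of α subunits (*Glra1*, *Glra2*, *Glra3*) and the β subunit (*Glrb*), which gephyrin (*Gphn*) anchors beneath the synapse. Dopaminergic neurons of the SN carry glycine receptors, so these genes report on different cells: transporter transcripts on the neurons and glia that handle glycine, receptor transcripts on the cells that receive it.

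Levels are given as normalized log2 intensity, in which a difference of 1 is a doubling. A probe's brightness depends on its sequence, so levels were compared between arrays and never between probes. In a tissue sample a lower level can come from fewer cells of a type or from less RNA per cell, and these cannot be told apart. On each array 74.8% to 77.5% of spots were well above background and 0 were saturated. The dissections held SN: 9 of the 10 listed dopaminergic markers had a probe with a name, and all 9 were above background on every array. Precision is limited by the number of arrays.

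*Slc6a5* had normalized log2 intensities of 7.69, 7.84, 7.84 and 8.0 across AAV-Null replicates 1 to 4. Across AAV-αSyn replicates 1 to 4 it was 9.11, 9.45, 8.98 and 8.97. The groups did not overlap, and every AAV-αSyn array was above the highest AAV-Null array. The means were 7.84 ± 0.13 (SD, n = 4) and 9.13 ± 0.22 (SD, n = 4), a log2 difference of 1.28, or 2.43-fold. The arrays lie on 1 slide in 2 columns, and each column holds 2 arrays of each group. Within the columns the difference in *Slc6a5* was 1.13 and 1.44.

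*Slc6a9*, the transporter of glia, is read by 2 probes. The brighter probe (A_64_P059525) was 12.37, 12.45, 13.37 and 12.14 across AAV-Null replicates 1 to 4 and 12.47, 12.61, 12.64 and 12.41 across AAV-αSyn replicates 1 to 4. The groups overlapped, and AAV-Null replicate 3 was far above the other arrays. The log2 difference was −0.05 (95% interval −0.61 to 0.51, limma's adjusted p = 0.993; exact permutation test over arrays, two-sided, p = 0.971). The dimmer probe (A_64_P034551) was likewise highest on AAV-Null replicate 3, at 9.79, and lowest on AAV-Null replicate 4, at 8.46. Its AAV-αSyn values lay between 8.86 and 9.67, and the log2 difference was 0.0038 (SE 0.29). Without AAV-Null replicate 3, the difference of the brighter probe was 0.21 (limma's unadjusted p = 0.0712, adjusted p = 0.652). The 95% intervals ran from 0.653-fold to 1.43-fold for the brighter probe and from 0.633-fold to 1.59-fold for the dimmer one, so a shift of *Slc6a9* within these bounds was not detectable with these arrays.

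**Figure D1:**
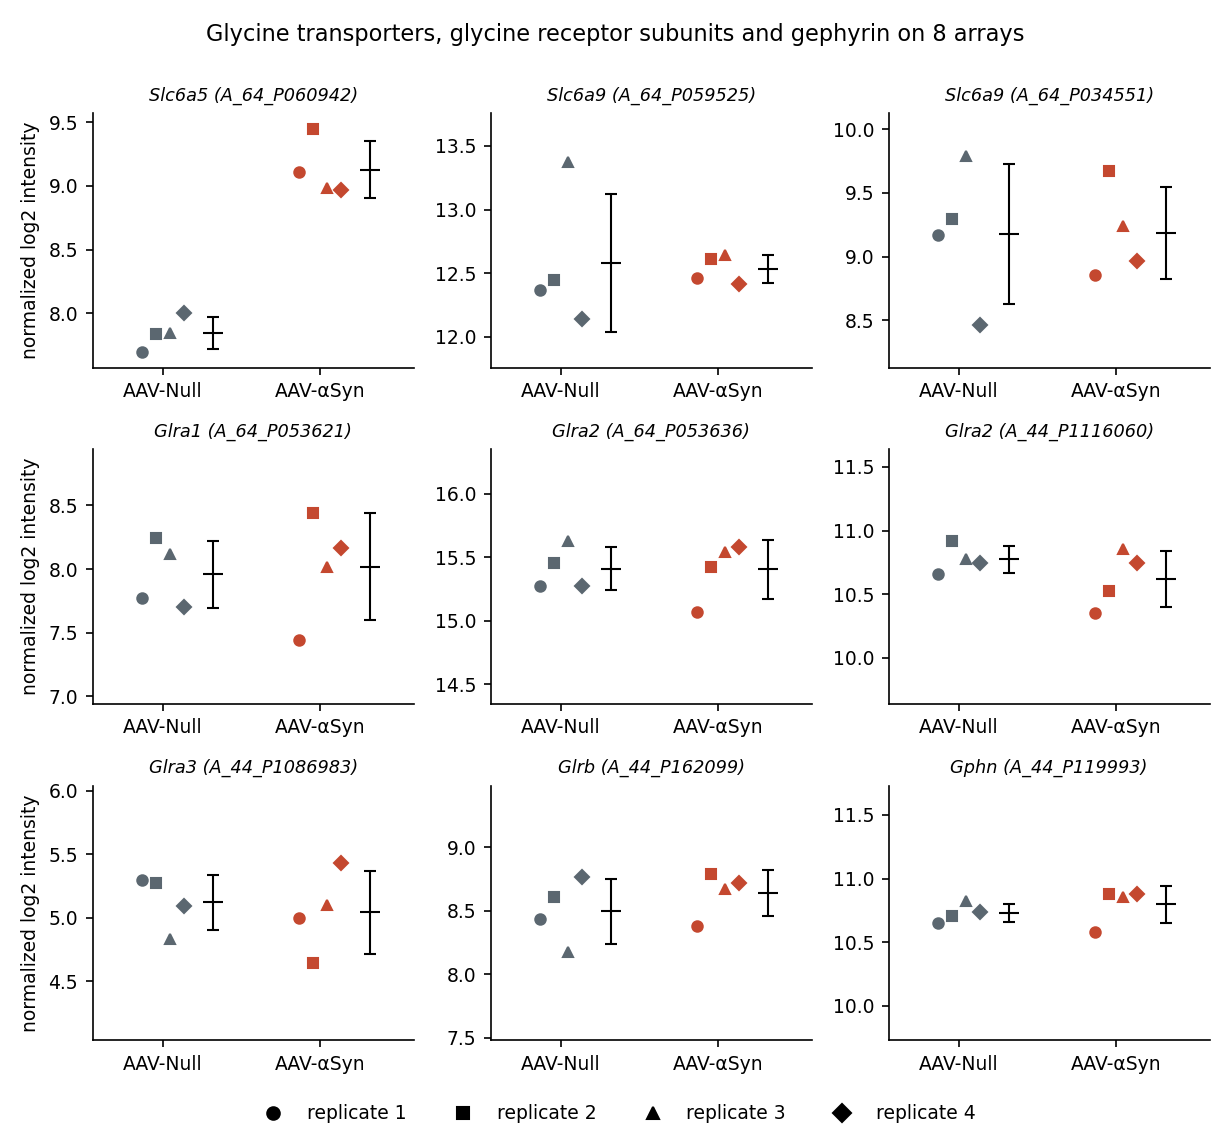
Normalized log2 intensity (vertical axes, each spanning 2 units) of the 9 probes of the 7 genes on the 4 AAV-Null (grey) and 4 AAV-αSyn (red) arrays; symbols mark the replicate and bars the mean ± SD. Only the *Slc6a5* panel shows groups that do not overlap, and replicate 1 of AAV-αSyn (circle) is the lowest of its group in 5 of the 6 panels of receptor subunits and gephyrin.

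No receptor subunit had a difference larger than the spread between arrays. *Glra1*, the adult α subunit of brainstem and spinal cord, was 7.77, 8.24, 8.12 and 7.70 across AAV-Null replicates 1 to 4. Across AAV-αSyn replicates 1 to 4 it was 7.44, 8.44, 8.02 and 8.17, so that this group held both the lowest and the highest of the 8 values. The means were 7.96 ± 0.26 (SD, n = 4) and 8.02 ± 0.42 (SD, n = 4). The log2 difference was 0.06, with a 95% interval of −0.45 to 0.57, or 0.731-fold to 1.48-fold (limma's adjusted p = 0.991; exact permutation test, two-sided, p = 0.886).

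*Glra2*, the α subunit that is prominent in immature neurons, is also read by 2 probes. The brighter probe (A_64_P053636) was 15.27, 15.46, 15.63 and 15.28 across AAV-Null replicates 1 to 4 and 15.07, 15.42, 15.54 and 15.58 across AAV-αSyn replicates 1 to 4. Its means were 15.41 ± 0.17 (SD, n = 4) and 15.40 ± 0.23 (SD, n = 4), with a 95% interval of the log2 difference of −0.32 to 0.31 (limma's adjusted p = 0.998). The dimmer probe (A_44_P1116060) was 10.66, 10.92, 10.77 and 10.74 across AAV-Null replicates 1 to 4 and 10.36, 10.52, 10.85 and 10.75 across AAV-αSyn replicates 1 to 4. Its AAV-αSyn replicates 1 and 2 lay below every AAV-Null array and the other two within their range. Its log2 difference of −0.15 was the lowest of the members (95% interval −0.43 to 0.13, limma's adjusted p = 0.972; exact permutation test, two-sided, p = 0.286).

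*Glra3*, an α subunit of spinal pain circuits, was 5.30, 5.27, 4.83 and 5.09 across AAV-Null replicates 1 to 4 and 5.00, 4.64, 5.10 and 5.43 across AAV-αSyn replicates 1 to 4. AAV-αSyn held both the lowest and the highest value. The log2 difference was −0.08 (95% interval −0.49 to 0.33, limma's adjusted p = 0.987; exact permutation test, two-sided, p = 0.657).

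*Glrb*, the β subunit that ties the receptor to gephyrin, was 8.43, 8.61, 8.18 and 8.76 across AAV-Null replicates 1 to 4. Across AAV-αSyn replicates 1 to 4 it was 8.38, 8.79, 8.67 and 8.72. Both groups reached about the same highest value, and only AAV-Null replicate 3 was below AAV-αSyn replicate 1. The log2 difference of 0.15 was the highest of the postsynaptic probes (95% interval −0.19 to 0.48, limma's adjusted p = 0.973; exact permutation test, two-sided, p = 0.371). It rested on AAV-Null replicate 3, without which it was 0.039.

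*Gphn*, the scaffold shared by glycine and GABA(A) receptors, was 10.65, 10.71, 10.83 and 10.73 across AAV-Null replicates 1 to 4. Across AAV-αSyn replicates 1 to 4 it was 10.58, 10.88, 10.85 and 10.88. The other three AAV-αSyn arrays were above every AAV-Null array, and AAV-αSyn replicate 1 was below all of them. The log2 difference was 0.07 with the narrowest interval of the members, 0.906-fold to 1.21-fold (limma's adjusted p = 0.974; exact permutation test, two-sided, p = 0.429).

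Of the 8 probes of the genes other than *Slc6a5*, 0 had an unadjusted p under 0.05 by limma, where 5.64% of all probes tested did, and the lowest was 0.244. None had an adjusted p under 0.05, which 0.0148% of all probes did. In 0 of the 8 did the groups of arrays not overlap, against 3.83% of all probes. The smallest p that the exact permutation test can give with 4 arrays against 4 is 0.0286, and over the 8 probes it lay between 0.286 and 1. Of the 6 postsynaptic probes, 3 had a log2 difference above 0 and 3 below, where 52.4% of all probes lay above 0. Their median was 0.03, beside a median of 0.0083 and quartiles of −0.09 and 0.10 over all probes tested. The 95% intervals of these 6 probes reached at most 1.48-fold upwards and 0.713-fold downwards, so none of them reached the 2.43-fold of *Slc6a5*. Smaller shifts lie within these intervals and were not detectable with 4 arrays against 4.

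**Figure D2:**
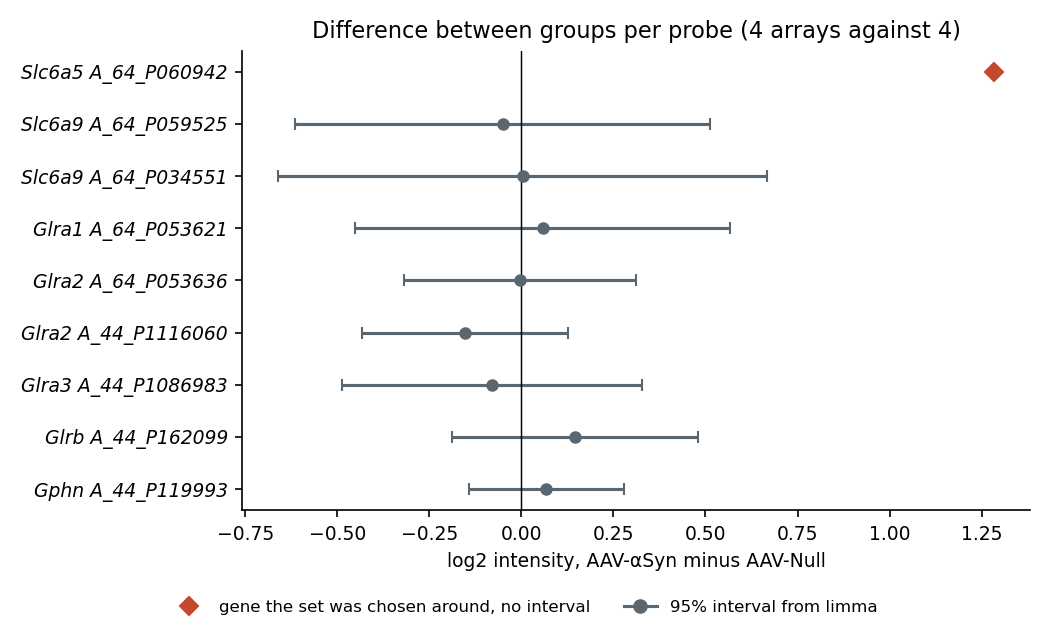
Difference in mean normalized log2 intensity, AAV-αSyn minus AAV-Null (horizontal axis), for each of the 9 probes, with 95% intervals from limma (bars). *Slc6a5* (diamond, shown without an interval because it chose the set) lies at 1.28, and the other 8 probes lie between −0.15 and 0.15 with intervals that all cross 0.

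AAV-αSyn replicate 1 gave the lowest value of its group in 5 of the 6 postsynaptic probes (83.3%), as it did in 32.4% of all probes measured on every array. It gave the lowest value of all 8 arrays in 4 of the 6 (66.7%), against 13.6% of all probes. *Slc6a5* was 9.11 on the same array, above 2 of the other AAV-αSyn arrays. Without it, 4 of the 6 postsynaptic probes had a log2 difference above 0. *Glra1* was then 0.25, *Glrb* 0.23 and *Gphn* 0.14, and the brighter *Glra2* probe was 0.11 (limma's unadjusted p = 0.183, 0.151, 0.110 and 0.373, each with an adjusted p of 0.999). None of the 6 had an unadjusted p under 0.05 without this array, and *Slc6a5* was 1.29.

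Within the columns of the slide the sign of the difference was opposite for 6 of the 8 probes other than *Slc6a5*, and for 52.9% of all probes. In the column that holds AAV-αSyn replicate 3 and the low replicate 1, the log2 difference was −0.24 for *Glra1* and −0.16 for *Glrb*. In the column that holds AAV-αSyn replicates 2 and 4 it was 0.36 for *Glra1* and 0.45 for *Glrb*. Each of these values compares 2 arrays with 2 and has no test.

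The rest of the glycine synapse was described from lists of genes, each gene by its brightest tested probe, with the share of all probes called beside the counts. Over all probes, 3.31% had an unadjusted p under 0.05 and were higher in AAV-αSyn, and 2.32% had one and were lower. The groups did not overlap for 2.57% (higher) and 1.26% (lower). No gene of these lists had an adjusted p under 0.05 by limma, and the counts at an unadjusted p under 0.05 follow.

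Of the 7 genes of glycine and GABA release and uptake, 1 was higher at an unadjusted p under 0.05 and 0 were lower, and the median log2 difference was 0.15. *Vamp1*, a vesicle protein of fast-firing terminals, had groups that did not overlap (0.17, limma's unadjusted p = 0.0671, adjusted p = 0.916). *Gad1*, which makes GABA, had a difference of 0.15 (adjusted p = 0.942). *Slc32a1*, the vesicular transporter that loads glycine and GABA alike, had a difference of −0.07, with groups that overlapped.

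Of 17 listed partners of gephyrin and other proteins of the inhibitory postsynapse, 14 were tested, 0 were higher and 1 was lower at an unadjusted p under 0.05. The lower gene was *Lhfpl4*, which holds GABA(A) receptors at synapses (log2 difference −0.30, adjusted p = 0.762), and its groups did not overlap. *Iqsec3*, a gephyrin-binding protein, had a difference of 0.12 (adjusted p = 0.950). The median over the 14 genes was −0.0060. The fourth α subunit, *Glra4*, had 1 probe, which was above background on 0 of the 8 arrays.

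Of the 5 genes that set neuronal chloride, on which the sign of a glycine response depends, 0 had an unadjusted p under 0.05, and the median log2 difference was 0.07. *Slc12a2*, which brings chloride into cells, had groups that did not overlap, with a difference of 0.11 (adjusted p = 0.953). *Wnk1*, a kinase that regulates these carriers, had a difference of 0.08.

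Glycine itself is made from serine and broken down by the cleavage system. Of 11 listed genes of these steps, 9 were tested and 0 had an unadjusted p under 0.05, with a median of 0.04. *Gatm*, which uses glycine to make the precursor of creatine, had groups that did not overlap (0.30, adjusted p = 0.920). *Psat1*, of serine synthesis, and *Amt*, of the cleavage system, had differences of 0.14 and 0.11. *Gldc*, which takes up glycine in that system, was above background on 0 arrays.

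Glycine also acts with glutamate on NMDA receptors. Of 11 listed genes of that co-agonist site, 10 were tested, 1 was higher and 0 were lower at an unadjusted p under 0.05, and the median log2 difference was −0.02. The higher gene was *Dao*, which degrades D-serine, at 8.07 ± 0.42 in AAV-Null and 8.65 ± 0.18 in AAV-αSyn (SD, n = 4 each). Its difference was 0.57 (limma's unadjusted p = 0.0243, adjusted p = 0.826), and the groups did not overlap. The receptor subunits *Grin3a* and *Grin2b* had differences of −0.25 (adjusted p = 0.940) and −0.44 (adjusted p = 0.965).

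**Figure D3:**
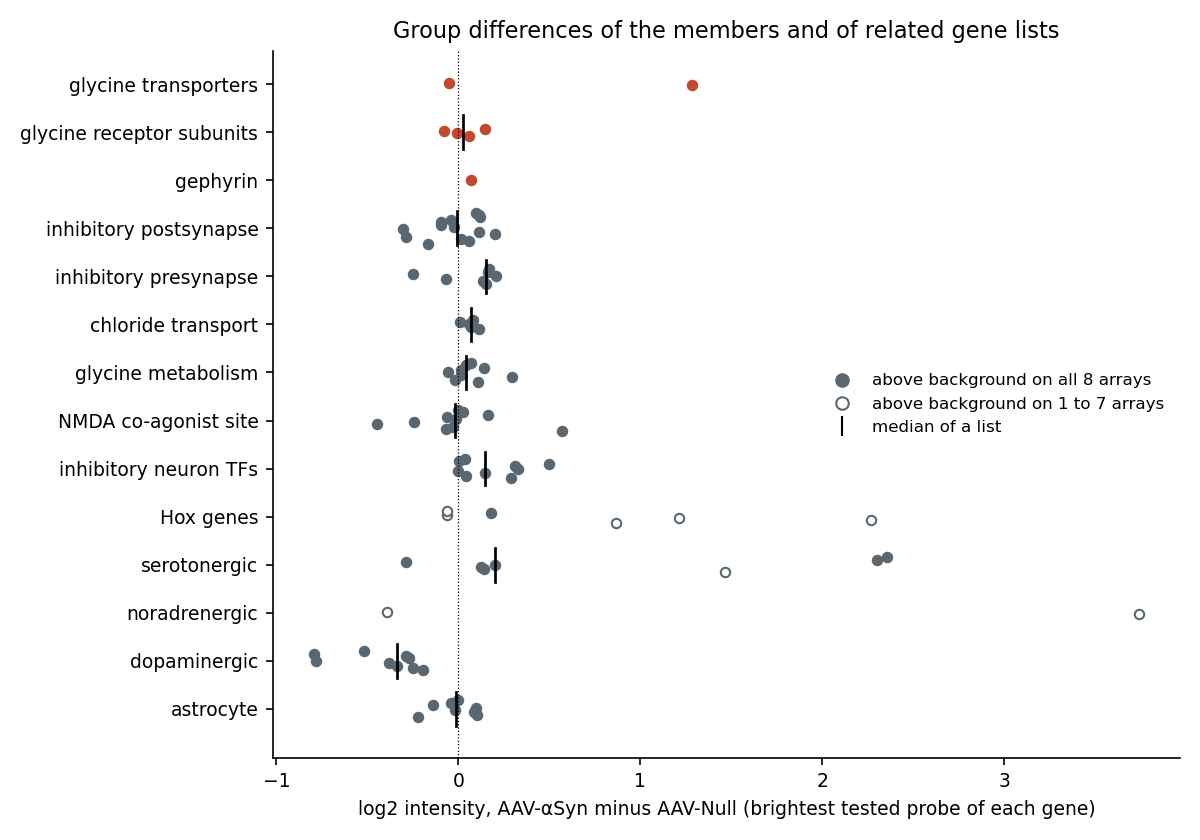
Difference in mean normalized log2 intensity, AAV-αSyn minus AAV-Null (horizontal axis), for each tested gene of the transporters, receptor subunits and gephyrin (red) and of 11 related lists (grey); open points mark genes not above background on every array and vertical bars the medians of lists of 3 or more genes that were all above background in both groups. The medians of the synaptic lists lie between −0.02 and 0.15, the dopaminergic genes all lie below 0, and the points to the right of *Slc6a5* are *Hox*, serotonergic and noradrenergic genes.

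Several transcripts known from regions behind the SN, though not all confined to them, also had higher means in AAV-αSyn. Their values are given here because *Slc6a5* is known from hindbrain neurons. Of 11 listed transcription factors of inhibitory hindbrain and spinal neurons, 9 were tested, 2 were higher and 0 were lower at an unadjusted p under 0.05, with a median of 0.15. These were *Pax8* (log2 difference 0.50, adjusted p = 0.780) and *Lhx5* (0.33, adjusted p = 0.83), and both had groups that overlapped. *Bhlhe22* had a difference of 0.29 (limma's adjusted p = 0.920), and the lowest difference of the 9 genes was −0.0016. The summed intensity of the 9 genes was 2796 to 2919 on the AAV-Null arrays and 2912 to 3347 on the AAV-αSyn arrays.

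Of 15 listed *Hox* genes, which mark hindbrain and spinal cord, 6 were tested, and 5 others had probes above background on 0 arrays. Of the 6, 3 were above background in both groups, and 1 of these, *Hoxa2*, was higher at an unadjusted p under 0.05. The other three, *Hoxa4*, *Hoxb3* and *Hoxb5*, passed the filter through AAV-αSyn arrays alone, so no test is given for them. *Hoxa2* was 5.07, 4.58, 4.72 and 3.90 across AAV-Null replicates 1 to 4 and 5.16, 5.76, 5.63 and 5.18 across AAV-αSyn replicates 1 to 4, and was above background on 3 AAV-Null and 4 AAV-αSyn arrays. Its log2 difference was 0.86 (adjusted p = 0.712). *Hoxa4* was above background on 0 AAV-Null and 2 AAV-αSyn arrays. Its AAV-αSyn mean was at least 1.28-fold above a bound of 3.13 for AAV-Null. AAV-αSyn replicates 1 (2.59) and 4 (1.63) lay below that bound. For this bound each AAV-Null array was given its lowest signal called above background, or the signal of the probe itself if that was higher. *Hoxb3* was above background on 0 AAV-Null and 2 AAV-αSyn arrays and *Hoxb5* on 0 and 1. The summed intensity of the 3 genes above background in both groups was 51.4 to 62.7 on the AAV-Null arrays and 62 to 94.6 on the AAV-αSyn arrays, and these ranges overlapped.

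Of the 7 serotonergic genes, 3 were higher and 0 were lower at an unadjusted p under 0.05, and their median log2 difference was 0.20. *Tph2*, which makes serotonin in the raphe, was 8.32, 8.12, 10.61 and 8.99 across AAV-Null replicates 1 to 4 and 11.16, 11.51, 10.59 and 12.20 across AAV-αSyn replicates 1 to 4 (log2 difference 2.35, adjusted p = 0.60). AAV-Null replicate 3 thus reached the *Tph2* level of AAV-αSyn replicate 3, while *Slc6a5* was 7.84 and 8.98 on these arrays. *Slc6a4*, the serotonin transporter, had a difference of 2.30 (adjusted p = 0.760) and *Maob* one of 0.20 (adjusted p = 0.868). The summed intensity of the 7 genes was 12477 to 16700 on the AAV-Null arrays and 13091 to 18675 on the AAV-αSyn arrays. The list shares the vesicular transporter *Slc18a2*, whose log2 difference was −0.29, with the dopaminergic list. Without *Slc18a2* the sum over the other 6 genes was 2585 to 4791 on the AAV-Null arrays and 4427 to 8488 on the AAV-αSyn arrays.

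Of 4 listed noradrenergic genes 2 were tested, of which 1, *Slc6a2*, was above background in both groups. *Dbh*, which makes noradrenaline, was above background on 0 AAV-Null arrays and on AAV-αSyn replicates 2, 3 and 4, at 6.27, 7.30 and 7.38, and was 1.31 on AAV-αSyn replicate 1. By the same bound its mean was at least 5.42-fold higher in AAV-αSyn, with no test because it passed the filter through AAV-αSyn arrays alone. *Slc6a2*, the noradrenaline transporter, was above background on 2 AAV-Null arrays and 1 AAV-αSyn array, with a difference of −0.39 (limma's unadjusted p = 0.152, adjusted p = 0.961). *Phox2a* was above background on 0 arrays. On AAV-αSyn replicate 1, where *Dbh* was below background, *Slc6a5* was 9.11, and on the other arrays of that group it lay between 8.97 and 9.45. The part of tissue from outside the SN in the values of *Slc6a5* was not tested.

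**Figure D4:**
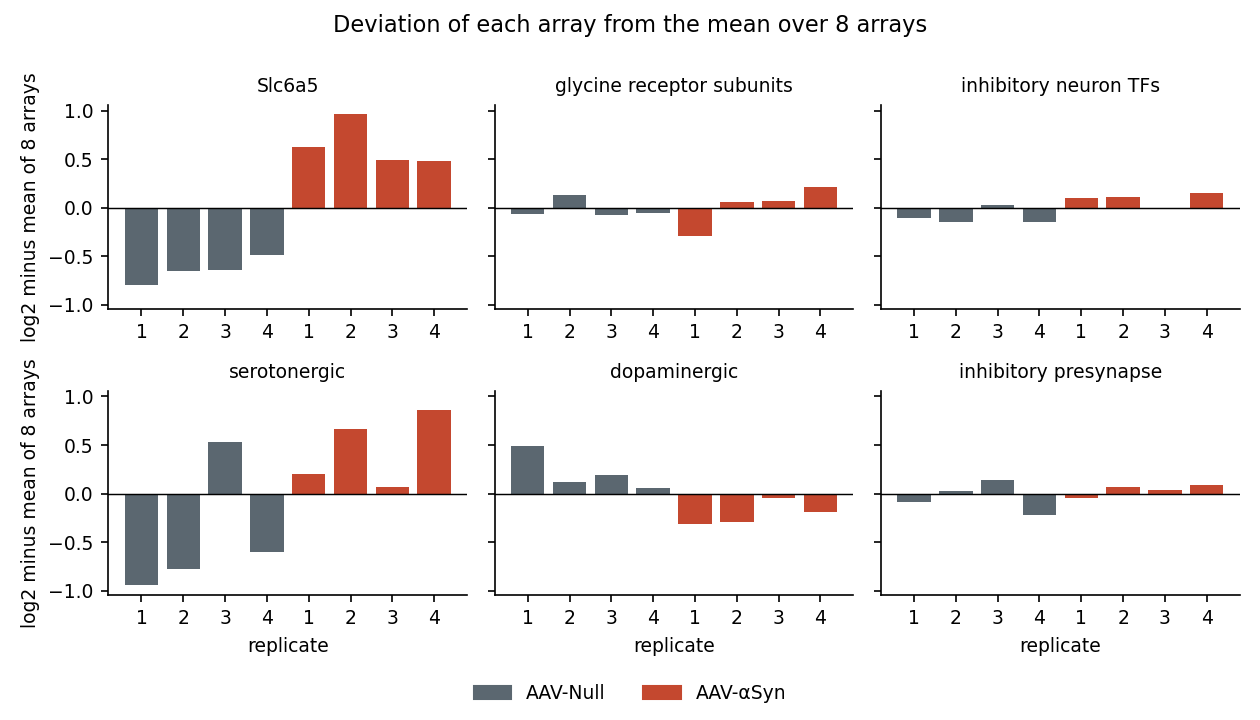
Mean normalized log2 intensity of *Slc6a5*, of the 4 receptor subunits and of 4 lists on each array, as the deviation from its own mean over the 8 arrays (vertical axis), for AAV-Null (grey) and AAV-αSyn (red) replicates 1 to 4. *Slc6a5* is above its mean on all 4 AAV-αSyn arrays and below it on all 4 AAV-Null arrays, whereas the receptor subunits change sign within each group.

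For the SN itself, all 9 tested dopaminergic markers had a log2 difference below 0 in the dissected tissue, with a median of −0.34. At an unadjusted p under 0.05 by limma, 4 of them were lower. They include *Th* (−0.52, adjusted p = 0.484), *Pitx3* (−0.79, adjusted p = 0.747) and *Slc6a3* (−0.79, adjusted p = 0.747). Their summed intensity was 155898 to 199237 on the AAV-Null arrays and 122298 to 132678 on the AAV-αSyn arrays, with no overlap. Without *Th* these ranges were 68548 to 92704 and 57431 to 72233 and overlapped. The receptor subunits, which dopaminergic neurons carry among other cells, had a median log2 difference of 0.03 over the 4 genes. The part of the dopaminergic markers in the receptor values was not tested. Of the 8 astrocyte genes, which bear on *Slc6a9*, 0 had an unadjusted p under 0.05, and their median was −0.01. The 7 genes of GABAergic output neurons (median −0.07), 6 of oligodendrocytes (0.10), 6 of microglia (0.0059) and 6 of blood and vessels (0.04) likewise held 0 such genes. So did the 2 of glutamatergic neurons, *Slc17a6* (−0.10) and *Slc17a7* (0.32). *Slc17a7* was above background on only 1 AAV-Null and 2 AAV-αSyn arrays.

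Without AAV-αSyn replicate 1, left out after its low receptor values were seen, 2.99% of all probes were higher and 2.01% lower at an unadjusted p under 0.05. Higher at this threshold were then 2 of the 7 serotonergic genes, 1 of the 3 *Hox* genes above background in both groups, 1 of the 9 hindbrain transcription factors, 2 of the 7 genes of release and uptake and 1 of the 10 genes of the co-agonist site, and 0 of these lists held a lower gene. *Slc6a2* did not pass this threshold. Lower were 3 of the 9 dopaminergic markers and 1 of the 14 genes of the inhibitory postsynapse, and 0 of both lists were higher.

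The profile of *Slc6a5* over the 8 arrays was set against those of 16147 named probes above background on all arrays. The measure was the root mean square difference of log2 values, each centred on its own mean, and its median over these probes was 0.669. The nearest was *Krt73*, a keratin of the hair follicle, at 0.171. It was 3.58, 4.04, 3.88 and 4.08 across AAV-Null replicates 1 to 4 and 4.90, 5.12, 5.10 and 5.06 across AAV-αSyn replicates 1 to 4, with a log2 difference of 1.15. *Bco1* (0.345), which cleaves carotene, *C1ql3* (0.347), a secreted synaptic protein, the calcitonin receptor *Calcr* (0.348) and the developmental gene *Mab21l2* (0.353) followed. Among the same probes *Glrb* ranked 1944 (0.602) and *Gphn* 4141, and the probes of *Glra1*, *Glra2*, *Glra3* and *Slc6a9* ranked between 9370 and 14272. Probes near *Slc6a5* must differ between the groups, so these differences are a description.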

How the data were processed

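Total RNA from the SN was labelled with Cy3 and hybridised to 8 Agilent 1-colour arrays, 4 per group; the methods state 3 per group without saying which, and all 8 were used. The authors deposited scanner files with each spot's processed intensity, background-corrected by Agilent Feature Extraction (11.5.1.1 per the submitters' processing notes, 12.0.3.2 per the file headers) with no normalization across arrays. A deposited matrix of quantile-normalized log2 values served as an alternative. A dim spot carries more background error, so its differences are less certain.

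Control spots and outlier spots were left out. A probe with a share of at least 0.5 of its spots called well above background counted as above background on that array, and 1 such array was enough to keep it. Intensities were quantile normalized as log2 values and averaged per probe. Groups were compared in R 4.3.3 by limma 3.58.1 (lmFit and eBayes, two-sided, Benjamini–Hochberg adjusted over 33853 probes), and single probes also by an exact permutation test over all 70 assignments of the arrays. The procedure was tested on simulated data. Methods call the samples biological replicates, and the labels name no animals, so p-values measure the spread between these samples.

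Probes were named by RefSeq accession through a table of assembly GRCr8, which named 21229 of the 45598; no coordinates are given, because the files use another assembly. The probes were A_64_P060942 (*Slc6a5*, NM_203334), A_64_P059525 and A_64_P034551 (*Slc6a9*, NM_053818), A_64_P053621 (*Glra1*, NM_013133), A_64_P053636 and A_44_P1116060 (*Glra2*, NM_012568), A_44_P1086983 (*Glra3*, NM_053724), A_44_P162099 (*Glrb*, NM_053296) and A_44_P119993 (*Gphn*, NM_022865). Members and lists were chosen with earlier results of these data known. Named genes were all members, up to 3 genes of each list with the smallest unadjusted p, and the 5 probes nearest to *Slc6a5*; *Slc32a1*, *Slc18a2*, *Hoxb5*, *Glra4*, *Gldc* and *Phox2a* were named after their values were seen. Some genes that this rule selects are left out of the text. Alternatives were scaling to the 75th percentile or by cyclic loess, normexp with an offset of 50 (on median signals), no filter on dim probes or one at 4 or 8 arrays, the deposited matrix, other variance models (trend, robust, array weights), the mean over a gene's probes, the replicate number or the slide column as a block, and each array left out.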

Additional observations from a re-analysis of the deposited data

Results flagged for a closer look

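*Gphn* was lower on AAV-αSyn replicate 1, at 10.58, than on the rest of its group, at 10.85 to 10.88. The gap between this array and its nearest neighbour was 0.904 of the range of the group, above Dixon's 95% critical value for 4 arrays. Of the 18 groups of 4 arrays examined over the 9 probes, this was the 1 group with an array set apart, where chance gives 0.9.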

How the results depend on the processing

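The count of probes of the 6 genes other than *Slc6a5* with an unadjusted p under 0.05 was 0 in all 13 processing alternatives and with each of the 8 arrays left out, as was the count with an adjusted p under 0.05 by limma. The median log2 difference over the postsynaptic probes was between 0.0061 and 0.058 in the processing alternatives and between −0.038 and 0.12 with an array left out. *Slc6a5* was higher in AAV-αSyn in every alternative. Its groups did not overlap, so no array left out could change that sign, and these values are a description. Its difference was 1.05 with normexp, which changed the background method, the signal and the offset together, and between 1.18 and 1.34 with an array left out. Some small differences changed sign. With array weights the brighter *Glra2* probe was 0.046 and the brighter *Slc6a9* probe 0.11. The ranges that follow, with an array left out, are of each gene's brightest probe. *Glra1* lay between −0.083 and 0.25, *Glra2* between −0.064 and 0.11 and *Glra3* between −0.21 and 0.053. *Glrb* lay between 0.039 and 0.24, *Gphn* between 0.04 and 0.14 and *Slc6a9* between −0.20 and 0.21. The dimmer *Glra2* probe lay between −0.23 and −0.065 and the dimmer *Slc6a9* probe between −0.24 and 0.21. *Glra1* turned negative without AAV-Null replicate 1 (−0.0034) or 4 (−0.028) or AAV-αSyn replicate 2 (−0.083). The brighter *Glra2* probe became positive when AAV-Null replicate 2 was left out (0.011), and likewise for replicate 3 of that group (0.068). Leaving out AAV-αSyn replicate 1 also made this probe positive (0.11). *Glra3* turned positive without AAV-αSyn replicate 2 (0.053), as did the brighter *Slc6a9* probe without AAV-Null replicate 3 (0.21). The cause was not tested. Over all probes, 5 had an adjusted p under 0.05, 10 with array weights, 3 with the slide column as a block and 3 without AAV-Null replicate 2, 3 or 4, and the count at an unadjusted p under 0.05 rose from 1908 to 4503 with array weights.

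The replicate number is also the row of the slide. Deviations from the group means of arrays with the same number correlated at 0.144, 0.267, 0.0406 and −0.0022 over probes. Those of arrays with different numbers correlated at −0.277 to 0.255. These values do not settle whether the numbers pair the arrays. Over all probes the count at an unadjusted p under 0.05 by limma was 2218 with the replicate block, beside 1908 without it. With the replicate block the count of all probes with an adjusted p under 0.05 was 0, and of the probes of the 6 genes 0 had an unadjusted p under 0.05.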
